A study of Mus musculus with 5 samples.

Results

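Among the 7955 cells of a library labelled as splenic SMARTA CD4+ T cells from naive mice, 97 cells (1.22%, 95% Clopper-Pearson interval 0.990 to 1.49%) held at least 1 molecule of Ccl5. These cells are described here. They were chosen by that count alone, and were set beside the 7367 cells of the same library that held no molecule of Ccl5, Cxcr6, Gzma or Klrd1. The remaining 491 cells held none of Ccl5 and at least 1 of the other 3 genes, and entered neither group. The working name of the chosen cells was memory-like, and the genes given as their marks were Ccl5, Cxcr6, Gzma, Klrd1 and Ifitm1. Because the rule counts Ccl5, the Ccl5 values below describe the choice and are no result, and every other gene was read in the very cells that the choice fixed.

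SMARTA mice carry a transgenic T cell receptor on CD4+ T cells that recognises a peptide of the lymphocytic choriomeningitis virus glycoprotein. The series holds 20149 cells, labelled as SMARTA CD4+ T cells, in 5 libraries, with 1 library per group, on a C57BL/6 background. The naive group received no treatment. In the other 4 groups, CD4+ CD45.1+ SMARTA cells were sorted from the inguinal tumor lymph node, 8 days after tumor cells, named MC38 in the growth protocol and PyMG in the treatment protocol, went into the mammary fat pad. Those 4 groups were left untreated, received anti-CTLA4 antibody on days 0, 2 and 5, received diphtheria toxin on days 0 and 2 for depletion of regulatory T cells, or received both, with PBS given in place of the toxin. The number of animals behind each library, and whether the naive cells passed the same sort, are not given in the sources used here. Cells of 1 library are not replicates, so no p-value is given, and the intervals are exact 95% intervals that cover counting error only.

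Ccl5 is a chemokine that attracts T cells and monocytes. In lymphocytes its transcript is a late product of differentiation, kept at a high level in memory CD8+ T cells, natural killer (NK) cells and part of the effector memory CD4+ T cells, and scarce in naive T cells. Gzma encodes granzyme A, a protease of cytotoxic granules. Klrd1 encodes CD94, a subunit of inhibitory and activating receptors on NK cells, and Cxcr6 is a chemokine receptor of memory and tissue-resident T cells.

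Molecules were counted as unique molecular identifiers (UMIs) over 11924 listed genes. The 97 cells had a median of 1777 UMIs per cell (660 to 3164), and the comparison cells had 1678 (445 to 3664). Summed, that gave 179552 UMIs in the Ccl5-positive cells, so that 1 UMI was worth 5.57 CPM, the unit in which counts are scaled to a common total, and 12696692 UMIs in the comparison cells. The median share of mitochondrial UMIs was 0.156% against 0.235%. Of all naive-library barcodes 30 also occurred in another library, and none of them belonged to a Ccl5-positive cell.

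Markers divided the 97 cells. Of 12 listed NK cell markers, 44 cells had none, 29 had 1, 7 had 2, none had 3 to 5, and 17 had 6 to 12. These 17 were also the only cells of the whole library with 6 or more. The cells were then put into 3 classes and a remaining single cell, after the values were seen. The largest held 51 cells with 2 or more Ccl5 UMIs, fewer than 3 NK markers and fewer than 4 B cell markers. An NK-like class held the 17 cells with 3 or more NK markers. A class of 28 cells had a single Ccl5 UMI and fewer than 3 NK markers. The remaining cell had 7 Ccl5 UMIs beside 4 or more B cell markers, with 59 UMIs of H2-Eb1, 60 of H2-Aa and 215 of Cd74, the class II chains and their invariant chain. Ccl5 itself ran from 2 to 160 UMIs per cell in the 51 cells, with a median of 14, and from 31 to 128 in the NK-like cells, with a median of 64. The 51 cells held 60.6% of the Ccl5 UMIs, the NK-like cells 38.2%, and the 28 cells 1.01%.

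**Figure D1:**
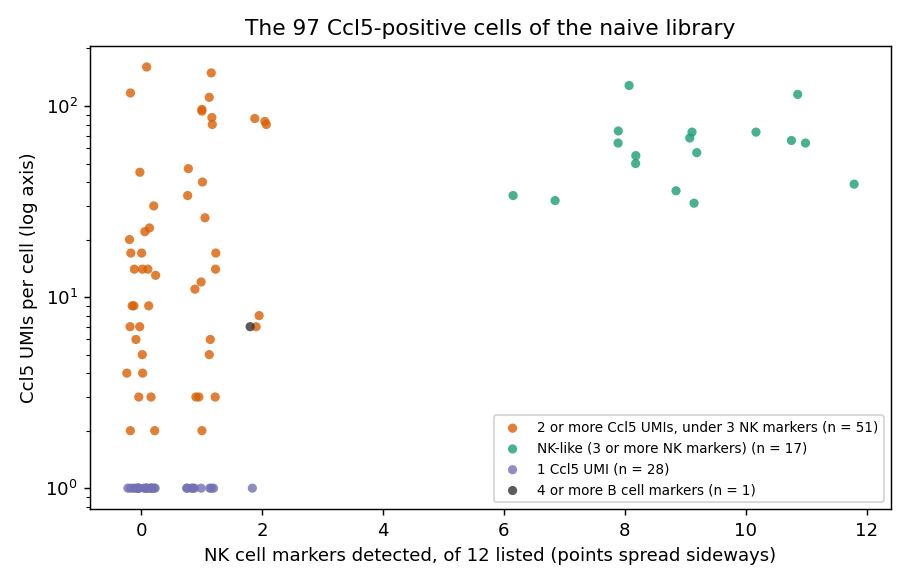
Each point is 1 of the 97 Ccl5-positive cells, placed by the number of NK cell markers detected, of 12 listed (horizontal, points spread sideways for legibility), and by its Ccl5 UMIs (vertical, log axis), with colours for the 4 classes. The 17 NK-like cells stand at 6 to 12 markers, and no Ccl5-positive cell has 3 to 5.

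The other genes of the name divided between the classes. Gzma had 671 UMIs in 21 cells, of which 612 were in 16 of the 17 NK-like cells and 59 in 5 of the 51. Klrd1 had 61 of its 75 UMIs in the NK-like cells and 14 in 6 of the 51. Cxcr6 went the other way, with 34 of 35 UMIs in 14 of the 51 cells, 1 UMI in the single-UMI class and none in the NK-like cells. Ifitm1, an interferon-induced membrane protein gene, was at 0 in all 97 cells, while 7 comparison cells held 117 UMIs. In the clusters described below, Ifitm1 led cluster 8 together with the myeloid marker Lyz2, at 716 CPM against 0.22 CPM in the rest of the library. CD4 T cell markers were tested as a list of 4 genes, Cd4, Cd40lg, Izumo1r and Trat1. At least 1 of them was detected in 38 of the 51 cells, in 22 of the 28 single-UMI cells, in 6043 of 7367 comparison cells and in 0 of the 17 NK-like cells. The 17 NK-like cells thus carried none of the markers of the labelled cell type, and the classes are called here by their rule or leading genes.

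Over all 97 cells, the level exceeded that of the comparison cells by 2-fold or more for 401 of 6797 tested genes (5.9%), and 411 genes (6.05%) lay below it by 2-fold or more. Genes entered when both sums together held 30 UMIs and their mean level reached 25 CPM. The median log2 ratio of all genes was −0.07. Gene lists were read at a fold of 1.5, which 12.5% of all genes passed upward and 16.8% downward. Of 26 genes tested on a list of memory and effector surface and cytoskeleton genes, 24 were higher and 0 were lower. Of the 21 that passed the count minimum in the comparison cells alone, 19 were higher and 0 lower. Of 30 naive and quiescence genes, 0 were higher and 25 lower. All 11 tested killer cell lectin-like receptor genes were higher, but 0 of them passed the count minimum in the comparison cells alone, so their direction was fixed by the minimum. These sums mix the classes, which are taken in turn.

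The 51 cells with 2 or more Ccl5 UMIs had 95744 UMIs in all (1 UMI is 10.4 CPM) and a median of 1875 per cell (740 to 3164). They had a high level of transcripts of the memory and effector program of T cells and a low level of the transcripts that mark naive T cells. Of 6733 genes tested, a fold of 2 was reached upward by 601 (8.93%) and downward by 780 (11.6%), and the all-gene median log2 ratio was −0.04. At the fold of 1.5 the background was 18.3% higher and 23.6% lower. Against it, 23 of 25 memory and effector surface genes were higher and 0 lower (median log2 ratio 1.96), 11 of 13 effector regulators were higher and 0 lower (median 2.90), and 25 of 29 naive and quiescence genes were lower and 1 higher (median −1.92). A gene can pass the count minimum through the Ccl5-positive cells alone, which fixes its direction. When only genes that passed in the comparison cells were kept, 13.7% of 6296 genes were higher and 25.2% lower, and the same lists gave 19 of 21 higher and 0 lower, 5 of 7 higher and 0 lower, and 25 of 29 lower and 1 higher.

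**Figure D2:**
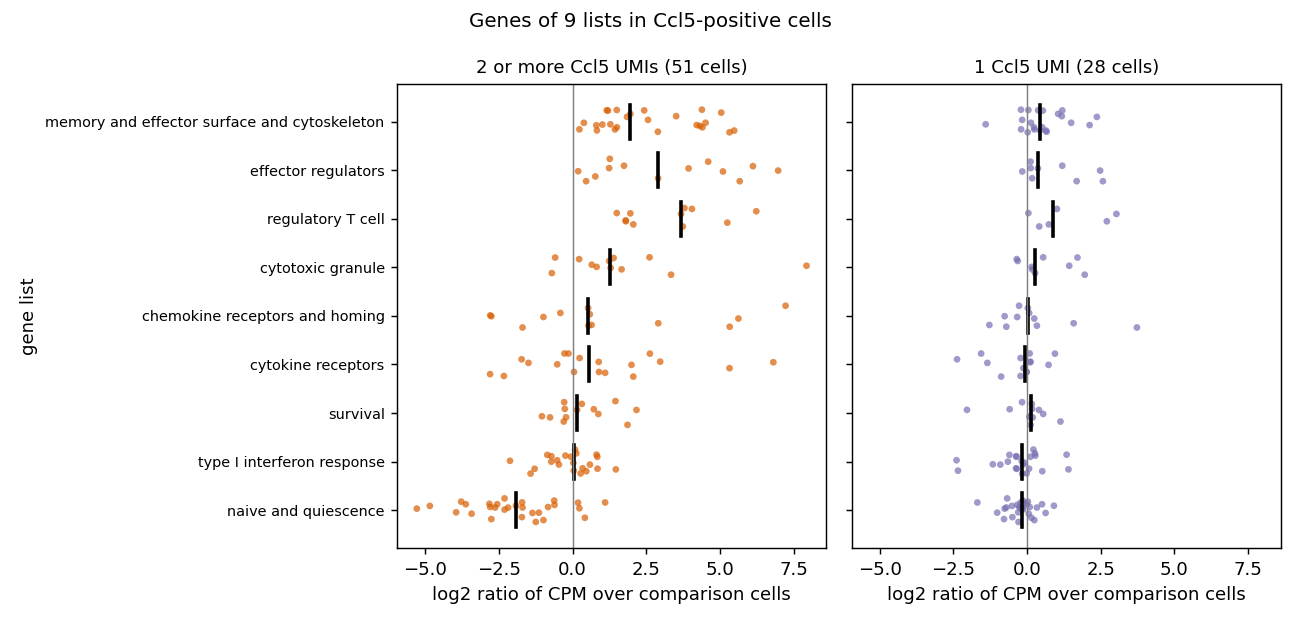
Each point is 1 gene of 9 fixed lists, placed by its log2 ratio of CPM over the comparison cells, for the 51 cells with 2 or more Ccl5 UMIs (left) and the 28 cells with a single one (right); black bars are list medians. In the 51 cells the memory and effector list has its median at 1.96 and the naive list at −1.92, while in the 28 cells the same medians are 0.44 and −0.16.

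Nkg7, a membrane protein of cytotoxic granules, had the most widespread difference among the leading genes. It had 0 to 20 UMIs per cell with a median of 4, and was detected in 41 of the 51 cells, against 70 of 7367 comparison cells. Summed, its level was 2998 CPM against 12.2 CPM, a ratio of 246 (95% interval 201 to 300). The other granule genes did not share this reach. Gzmb, the main granzyme of cytotoxic effectors, had 2 UMIs in 2 cells, and Prf1, which encodes perforin, had 5 UMIs in 5 cells and a ratio of 1.76 (0.569 to 4.15). Both are NK markers, and the 51 cells were limited to fewer than 3 of these per cell. Gzmk, a granzyme of memory T cells, had 15 UMIs in 5 of the 51 cells and none in the comparison cells. Of 12 cytotoxic granule genes tested, 9 were higher and 2 lower (median log2 ratio 1.27), and of the 7 that passed in the comparison cells alone 4 and 2.

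Upstream sequence is shown for the gene with this reach and, for contrast, for Dapl1 and Ncr1. By the interval bound nearest 1, the naive T cell gene Dapl1 ranked first among the lower genes of the 51 cells. Ncr1 ranked first upward in the NK-like class, which was chosen by a marker list that holds Ncr1. The bases are from RefSeq on build GRCm38.p6, 5′ to 3′ on the gene's strand, ending before the annotated start: chr7:43436888-43437072 on the plus strand for Nkg7, chr7:4337474-4337723 on the plus strand for Ncr1 and chr2:59484403-59484652 on the plus strand for Dapl1. Capitals mark matches to the RUNX motif TGTGGT or its reverse complement ACCACA.
Nkg7: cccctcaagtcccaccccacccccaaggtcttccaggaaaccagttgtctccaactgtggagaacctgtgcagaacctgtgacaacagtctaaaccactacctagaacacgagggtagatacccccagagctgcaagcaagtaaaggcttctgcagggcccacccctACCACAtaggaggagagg
Ncr1: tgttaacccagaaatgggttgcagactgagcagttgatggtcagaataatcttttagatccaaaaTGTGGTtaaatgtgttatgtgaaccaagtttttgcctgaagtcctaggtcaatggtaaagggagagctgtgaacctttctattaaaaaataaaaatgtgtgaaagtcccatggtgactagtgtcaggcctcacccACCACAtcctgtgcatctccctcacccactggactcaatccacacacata
Dapl1: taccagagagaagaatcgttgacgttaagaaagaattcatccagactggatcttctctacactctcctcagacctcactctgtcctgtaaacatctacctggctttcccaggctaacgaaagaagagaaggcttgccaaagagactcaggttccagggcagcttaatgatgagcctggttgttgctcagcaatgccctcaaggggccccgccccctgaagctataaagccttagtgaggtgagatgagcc
The Nkg7 stretch held 1 match, the Ncr1 stretch 2 and the Dapl1 stretch 0. Of 32851 upstream regions, 14.05% of those read over 250 bases and 10.7% of those read over 185 bases, the length used for Nkg7, held this motif. The T-box motif AGGTGT, or ACACCT, had no match in any of the 3, so that no matches of the 2 motifs overlapped there, and was found in 11.8% and 9.17% of all regions at these lengths. A match is a description of letters only.

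Adhesion and cytoskeleton genes made up the broadest group. Itgb1, the integrin beta-1 chain, had 0 to 12 UMIs per cell with a median of 2, was detected in 40 of the 51 cells, and had a ratio of 21 (17.7 to 24.7). Its partner Itga4 was detected in 46 cells and had a ratio of 7.51 (6.44 to 8.73). The calcium-binding S100a4 had 179 UMIs in 39 cells and a ratio of 33.0 (27.9 to 38.9), although 56% of its 3′ end sequence is shared with the gene model Gm42674, so that its reads could be split. S100a6 had a ratio of 20.01 (16.9 to 23.6) and the scaffold gene Ahnak 18.5 (15.1 to 22.6). S100a10, already detected in 5198 comparison cells, was 3.60-fold higher and was detected in 50 of the 51. Myo1f, a motor protein gene of leukocytes, had a ratio of 51.1 (31.5 to 80.8). Cd44, the hyaluronan receptor used to sort memory T cells, was sparse, with 27 UMIs in 21 cells and a ratio of 7.44 (4.85 to 11). All of these genes were thus higher in the 51 cells.

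Receptors for cytokines and chemokines followed. Il2rb, the beta chain shared by the interleukin 2 and interleukin 15 receptors, had 56 UMIs in 29 cells and a ratio of 40.1 (29.2 to 54.4). Il18rap and Il18r1, both chains of the interleukin 18 receptor, had ratios of 113 (65.5 to 192) and 7.86 (5.54 to 10.9). Il7r, which naive and memory T cells both use, was 2.15-fold higher (1.77 to 2.59). The interleukin 6 receptor chains were lower, Il6ra by 5.02-fold (2.44 to 12.5) and Il6st, with 3 UMIs, by 6.95-fold (2.38 to 33.7). Cxcr3, a receptor for interferon-induced chemokines, was at 522 CPM against 10.6 CPM, a ratio of 49.5 (35 to 69), in 24 of the 51 cells. Ccr2 had 31 UMIs in 14 cells with a ratio of 40.3 (26.1 to 60.8), and Cx3cr1 26 UMIs in 9 cells with a ratio of 150 (82.2 to 275). Over the chemokine receptor and homing list, 6 of 13 tested genes were higher and 4 lower, and of the 10 that passed in the comparison cells alone 3 and 4. The lower ones included the lymph node homing receptor Ccr7, which was 6.75-fold lower (3.86 to 13.1) with 12 UMIs in 5 cells.

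Among transcription regulators, Id2, an inhibitor of E proteins used by effector lymphocytes, had 164 UMIs in 39 cells and a ratio of 24.3 (20.4 to 28.7). Hopx had 70 UMIs in 40 cells and a ratio of 51 (38.1 to 67.5). Both were spread over most of the 51 cells, whereas Zeb2, a repressor of terminal effector cells, had all 42 UMIs in 7 cells. Bhlhe40, another regulator of effector cells, had 19 UMIs in 14 cells and a ratio of 126 (63.6 to 249). Maf was 15.3-fold higher (11.6 to 19.9) and Rora 17.6-fold higher (12.3 to 24.6), in 26 and 24 of the 51 cells. Runx3, detected in 2251 comparison cells, was 2.40-fold higher (1.79 to 3.15). Tbx21, which encodes T-bet, had 17 UMIs in 14 cells, Eomes 5 UMIs in 4 cells and Ifng 4 UMIs in 4 cells. These 3 did not reach the count minimum, and the comparison cells held 10, 18 and 11 UMIs of them. Eomes is also an NK marker, so the choice of the 51 cells limited it. On the naive side, Lef1 was at 230 CPM against 1352 CPM, 5.89-fold lower (3.89 to 9.39), Tcf7 was 3.27-fold lower (2.37 to 4.65), Satb1 13.7-fold lower (7.85 to 26.6) and Foxp1 4.94-fold lower (3.48 to 7.28). Id3 was 7.06-fold lower (3.58 to 16.4). Klf2, which drives exit from lymphoid tissue, stood at a ratio of 1.14 (1.00 to 1.29).

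The deepest differences downward were in surface and scaffold genes of naive cells. Dapl1, lost as naive T cells differentiate, had 3 UMIs in 3 of the 51 cells against 4451 of 7367 comparison cells, 31.3 CPM against 1219 CPM, 38.9-fold lower (13.3 to 189). Actn1, which encodes alpha-actinin, had 2 UMIs and was 28.6-fold lower (7.93 to 237). Ly6c1, Igfbp4, Pdlim4 and Ramp1 had no UMI in the 51 cells. Against a floor of 3 UMIs over the 51 cells they were at least 15.4-, 12.3-, 10.7- and 10.6-fold lower. Cd4, in contrast, was at 470 CPM against 433 CPM, a ratio of 1.09 (0.790 to 1.45), and Cd28 was at a ratio of 1.02 (0.801 to 1.29). Of 17 T cell signalling genes, 3 were higher and 4 lower (median log2 ratio 0.03). Of 22 type I interferon response genes, 5 were higher and 6 lower (median 0.04).

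**Figure D3:**
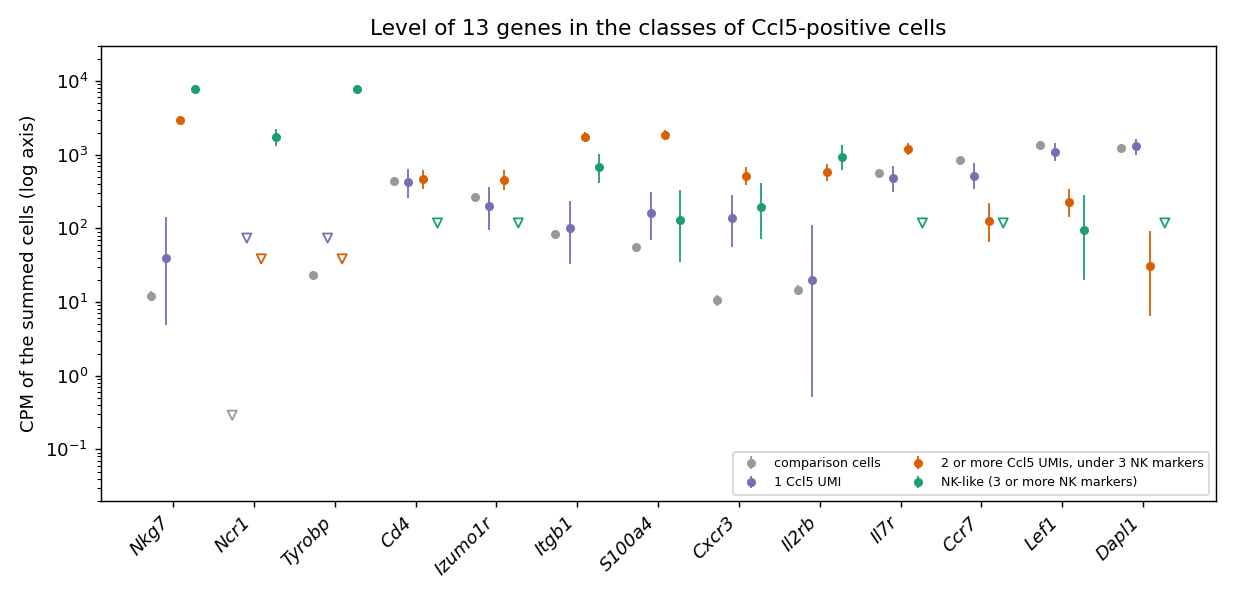
Points are the CPM of the summed cells (log axis) for 13 genes in the comparison cells and 3 classes of Ccl5-positive cells, with exact Poisson 95% intervals for counting error; open triangles mark the upper limit where no UMI was seen. Nkg7 is at 12.2 CPM in the comparison cells, 2998 CPM in the 51 cells and 7831 CPM in the NK-like cells, while Ccr7, Lef1 and Dapl1 are low in the 51 cells, and Lef1 and Dapl1 are near the comparison cells in those with a single Ccl5 UMI.

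Other lists moved less or in both directions. Of 9 tested genes of follicular helper T cells 6 were higher and 0 lower, and of the 8 that passed in the comparison cells alone 5 and 0. Batf, an AP-1 family factor, was at a ratio of 4.67 (3.06 to 6.85) and Icos at 3.64 (2.41 to 5.29). The defining follicular receptor Cxcr5 had 1 UMI in 1 cell. Of 9 inhibitory receptor genes 6 were higher and 1 lower, and of the 4 that passed in the comparison cells alone 1 was higher and 1 lower. Pdcd1, which encodes PD-1, had 7 UMIs in 5 cells with a ratio of 8.68 (3.41 to 18.5), and Nt5e, which encodes CD73, 6 UMIs in 5 cells. Of 10 T cell receptor response genes 2 were higher and 4 lower, and of the 9 that passed in the comparison cells alone 1 and 4. The activation marker Cd69 stood at a ratio of 0.841 (0.57 to 1.19), while Nr4a1 and Myc had no UMI in the 51 cells. Of 17 immediate early and dissociation stress genes 5 were higher and 6 lower, and of the 14 that passed in the comparison cells alone 2 and 6. Rgs1, a brake on chemokine receptor signalling, was 12.8-fold higher (8.58 to 18.6), and Junb was at a ratio of 0.485 (0.371 to 0.623). Of 11 cell cycle genes 4 were higher and 2 lower, and of 9 by the same restriction 2 and 2. The proliferation gene Mki67 had 4 UMIs in 3 cells. Of 13 survival genes 5 were higher and 2 lower, and of the 12 that passed in the comparison cells alone 4 and 2. The higher ones were led by Bcl2a1b at a ratio of 4.5 (2.37 to 7.79) and by the kinase gene Pim1 at 2.75 (2.12 to 3.5). Of the 3′ end of Bcl2a1b, 83.0% is shared with Bcl2a1a, Bcl2a1d and Gm29094, so its reads could be split. Bcl2 itself was at 1.11 (0.775 to 1.55).

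Genes of regulatory T cells were raised in the 51 cells as a list, and they sat in part of the cells. All 11 tested genes of that list were higher, with a median log2 ratio of 3.68. Only 3 of them passed the count minimum in the comparison cells alone, and all 3 were higher. Ikzf2, which encodes Helios, had 119 UMIs in 25 cells, 0 to 17 per cell with a median of 0, and a ratio of 16.6 (13.6 to 20.1). Tnfrsf4, which encodes the costimulatory receptor OX40, had 67 UMIs in 12 cells and a ratio of 38.1 (28.6 to 50.2), and 11 of those 12 cells also had Ikzf2. Foxp3, the defining factor of regulatory T cells, had 10 UMIs in 4 cells, with a ratio of 13.4 (6.23 to 25.7), and Ctla4 had 9 UMIs in 6 cells. All 4 Foxp3-positive cells had Ikzf2, as did 5 of the 6 with Ctla4. In the whole library 72 cells had a Foxp3 UMI, and 5 of them (6.94%) were Ccl5-positive. Most of the Ikzf2-positive cells thus had no detected Foxp3, which at these depths does not show that they lacked it.

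The 51 cells were not alike in their killer cell genes. Of 7 such genes (Klrd1, Klrg1, Cx3cr1, Zeb2, S1pr5, Gzma and Klrk1), 29 cells had none, 15 had 1 and 7 had 2 or more, a division drawn after the values were seen. The counts of these 7 genes in the groups below follow from that division and are no result. The 7 cells had 34 to 160 Ccl5 UMIs with a median of 87, and held all Zeb2 UMIs, 58 of 59 Gzma UMIs and 22 of 26 Cx3cr1 UMIs. Il18rap, Itgb1 and Nkg7 were detected in all 7, Cd4 in 4, Il7r in 2, Cxcr3 in 1 and Tnfrsf4 in none. The 29 cells had 2 to 94 Ccl5 UMIs with a median of 11. They held all 15 Gzmk UMIs, in 5 cells, and Cxcr3 was detected in 16 of them, Icos, a costimulatory receptor, in 13, and Cxcr6 in 9. The 15 cells had 2 to 149 Ccl5 UMIs with a median of 12, and 12 of them had Ikzf2 (87 UMIs), 8 had Klrg1, 7 had Tnfrsf4 and 3 had Foxp3. Median depth was 1875 UMIs in the 7 cells and 1851 in the 29. No cell had both Gzma and Ikzf2, with 5 and 25 positive cells among 51, and none had both Gzmk and Cxcr6, with 5 and 14. These pairs were picked after the values were seen, and other sparse pairs, such as Gzmk and Klrd1 (5 and 6 cells), also had no overlap. Whether sparse detection alone gives such gaps was not tested. Penk, a neuropeptide precursor gene, had a ratio of 501 (235 to 1188), and all 34 of its UMIs lay in 2 cells.

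Levels were also followed along the Ccl5 count in the Ccl5-positive cells with few NK and B cell markers, as a description of the threshold. Outside it stood the comparison cells, which also lacked Cxcr6, Gzma and Klrd1 and had no cut on markers, with Nkg7 at 12.2 CPM. In the 491 other cells without Ccl5, Nkg7 was at 78.6 CPM. Just inside it, in the 28 cells with 1 UMI, it was at 40.0 CPM. It was at 2004 CPM in the 3 cells with 2 UMIs, at 1523 CPM in the 9 cells with 3 to 5, and at 2141 CPM and 4808 CPM in the 20 cells with 6 to 20 and the 19 with more. Itgb1 went from 84.1 CPM in the comparison cells and 100 CPM in the cells with 1 UMI to 2186, 1060, 1649 and 2144 CPM in the same order. Lef1 went from 1352 CPM and 1100 CPM to no UMI in the 3 cells with 2 Ccl5 UMIs, and was at 265, 271 and 203 CPM in the cells with more. Those 3 cells held 5490 UMIs in all.

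The 28 cells with a single Ccl5 UMI (50011 UMIs, median 1745.5 per cell) were close to the comparison cells in most of the genes above. A fold of 2 was reached upward by 9.26% and downward by 9.11% of 6585 genes. At 1.5-fold, 21% of all genes were higher and 19.9% lower. On the naive list 2 of 30 genes were higher and 6 lower (median log2 ratio −0.16), and on the memory and effector list 8 of 21 were higher and 1 lower (median 0.44). Nkg7 had 2 UMIs, both in 1 cell. Dapl1 had a ratio of 1.07 (0.822 to 1.36), Lef1 0.813 (0.612 to 1.06) and Cd4 0.969 (0.6 to 1.48). A few genes were nevertheless higher in the sum, carried by a minority of the 28 cells. Id2 had 21 UMIs in 8 cells, up to 6 per cell, and a ratio of 5.96 (3.67 to 9.16). Cxcr3 had 7 UMIs in 4 cells and a ratio of 13.3 (5.23 to 28.1). The cells with 6 Id2 UMIs also held Cxcr3 and S100a4. S100a6 had 22 UMIs in 4 cells, with a ratio of 5.17 (3.23 to 7.87). Igfbp4 was 3.21-fold lower (1.48 to 8.76), Ly6c1 2.02-fold lower (1.15 to 3.90), and the survival gene Bcl2 4.1-fold lower (1.6 to 15.1) with 4 UMIs. Free RNA in the droplets can give a cell a single UMI of a gene it does not express. Of cells with few NK or B cell markers, 79 of 7923 (0.997%, median depth 1682 UMIs) had Ccl5. Of cells with 4 or more B cell markers, 1 of 10 did (10%, interval 0.253 to 44.5%, median depth 2007 UMIs), too few to set a background level. The part of free RNA in the 28 cells was not tested.

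The 17 NK-like cells (31158 UMIs, median 1711 per cell, 1390 to 2952, 32.1 CPM per UMI) carried the receptors, adaptors and granule genes of NK cells and lacked CD4 T cell markers. Markers chose this class, so the NK genes on that list describe the choice. Ncr1, which encodes NKp46, had 54 UMIs in 16 of 17 cells, 0 to 7 per cell with a median of 3, and none in the comparison cells. Tyrobp, the adaptor DAP12, had 6 to 32 UMIs per cell with a median of 13, and Fcer1g, another adaptor chain, 8 to 17 with a median of 10. Klrb1c, the NK1.1 antigen, had 53 UMIs in 16 cells. Outside the marker list, Nkg7 was found in all 17 cells (3 to 24 UMIs, median 16) at 7831 CPM, a ratio of 641 (522 to 790). Klrk1, which encodes NKG2D, was also found in all 17. At 1.5-fold, 25% of the 6164 genes tested were higher and 26.7% lower, a wide background that goes with the small sum. The 9 tested killer lectin-like receptor genes, part of them marker genes, passed the count minimum through the NK-like cells, which fixed their direction upward. In addition, the Klra genes share much of their 3′ ends (70.2% for Klra9) and cannot be counted apart with certainty.

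Cytotoxic effector genes that were scarce in the 51 cells were high in the NK-like cells. Of 13 cytotoxic granule genes tested, 11 were higher and 1 lower (median log2 ratio 3.96), and of the 7 that passed in the comparison cells alone 5 and 1. Prf1 had 53 UMIs in 15 cells and a ratio of 57.4 (42.2 to 76.7), Gzmb 18 UMIs in 10 cells and a ratio of 306 (156 to 587), and Ctsw, a cathepsin of cytotoxic lymphocytes, a ratio of 83.2 (57.6 to 117). Eomes had 23 UMIs in 12 cells and a ratio of 521 (269 to 1024), and the chemokine gene Ccl4 26 UMIs in 6 cells. Prf1, Gzmb and Eomes belong to the NK marker list, which chose the NK-like cells and limited the 51 cells to fewer than 3 markers each. T cell genes were at or near 0. Cd4, Cd5, Cd6, Il7r, Ccr7 and Dapl1 had no UMI, which puts Cd5 at least 6.36-fold, Il7r at least 5.79-fold, Ccr7 at least 8.78-fold and Dapl1 at least 12.7-fold lower against a floor of 3 UMIs over the 17 cells. Cd28 had 1 UMI, for a level 22.9-fold lower (4.1 to 904), and Bcl11b, a T cell identity factor, had 3 UMIs and was 15.1-fold lower (5.18 to 73.4). Of 17 T cell signalling genes, 2 were higher and 11 lower (median log2 ratio −1.92). S100a4, high in the 51 cells, had 4 UMIs in 3 NK-like cells and a ratio of 2.27 (0.616 to 5.83).

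A division of the 97 cells by Gzma largely repeated this class, since 16 of the 21 cells with a Gzma UMI were NK-like. Against the 76 cells without one, 4.62% of 1603 genes reached a fold of 2 upward and 15.4% downward, led by Tyrobp, Klra4 and Klra9 upward and by Cd74 and Tnfrsf4 downward. Of the 229 Cd74 UMIs in the 76 cells, 215 came from the single cell with B cell markers.

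The transgenic receptor was read through its variable genes Trbv13-1 (chr6:41116007-41116468) and Trav14d-3-dv8 (chr14:53078452-53079045), both on GRCm38. Of the Trav gene's 3′ end, 73.7% is shared with other Trav14 genes. A UMI of either was found in 2551 of 7367 comparison cells (34.6%, 33.5 to 35.7%), in 6 of the 51 cells (11.8%, 4.44 to 23.9%), in 7 of the 28 single-UMI cells (25%, 10.7 to 44.9%) and in 8 of the 17 NK-like cells (47.1%, 23.0 to 72.2%). After each cell was thinned to 1000 UMIs the shares were 22.9%, 6%, 22.2% and 29.4%. Another listed Trav gene was found in 9 of the 51 cells (17.6%) and in 13.1% of the comparison cells. Of all Trav UMIs, 1 of 14 (7.14%, 0.181 to 33.9%) in the 51 cells and 44.4% (42.6 to 46.3%) in the comparison cells came from Trav14d-3-dv8. Of all Trbv UMIs, 6 of 6 (100%, 54.1 to 100%) in the 51 cells and 99.9% in the comparison cells came from Trbv13-1. Only 3 other Trbv genes are listed, against 32 other Trav genes, and they held 2 UMIs in the comparison cells. The Trbv share was thus near 100% by the gene list and does not describe receptor use. The 51 cells thus had fewer detected transgene segments than the comparison cells beyond counting error, in 1 library. The NK-like cells, without CD4 markers, were not below the comparison cells in this share.

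Marker lists of other lineages stood on both sides of the comparison cells. The CD8 and gamma-delta lists were lower in the 51 cells, the NK and invariant NKT lists higher, and the B cell and myeloid lists near the same level. The 51 cells were chosen with fewer than 3 NK and fewer than 4 B cell markers. The comparison cells had no such cut, so the choice limited the NK and B cell values of the 51. Cd8a was at 0 in all 97, and Cd8b1 was found in 7 cells, against a CD8 marker in 1322 of 7367 comparison cells. Only 13 comparison cells had both CD8 markers, and 41.9% of the 3′ end of Cd8b1 is shared with other genes. Summed, the CD8 list was at 20.9 CPM in the 51 cells and at 130.5 CPM in the comparison cells. Of 7 listed gamma-delta T cell genes 2 were detected, in 3 of the 51 cells, against 2636 comparison cells with at least 1, at 157 CPM against 573 CPM. Of the 12 NK markers 5 were detected, at 397 CPM against 196 CPM, while Tyrobp, Fcer1g, Ncr1 and Klrb1c were at 0 in the 51 cells. Of 15 B cell genes 4 were detected, at a summed 836 CPM against 839 CPM in the comparison cells, with Cd79a and Ms4a1 at 0. Of 14 listed myeloid genes 4 were detected in the 51 cells, at 689 CPM against 632 CPM. Of 5 listed markers of invariant NKT cells 3 were detected, Slamf7, Cd160 and Tnfsf10, with Klrb1c and Il4 at 0. At least 1 of them was found in 15 of the 51 cells and in 303 of 7367 comparison cells, at 209 CPM against 25.8 CPM. After thinning to 1000 UMIs the shares were 18% and 2.51%. Zbtb16, the factor of invariant NKT cells, is not analysed here, and the part of such cells in the 51 was not tested.

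The library was clustered without Ccl5, Cxcr6, Gzma and Klrd1. Cluster 6, of 281 cells, took 50 of the 51 cells (98.0%) and 4 of the 28 single-UMI cells, and cluster 7 was made of exactly the 17 NK-like cells. The other 24 single-UMI cells lay in 5 clusters that held most of the comparison cells. Of the comparison cells 181 (2.46%) were in cluster 6. Its leading genes were Penk, Cxcr3, Ccr10, Ttc39c, Nt5e, S100a4, Ccr6, Nebl, Nrp1 and S100a6. Cluster 6 is left unnamed. Clusters 8 and 9 had the listed myeloid markers Lyz2 and C1qa among their leading genes, and held 60 and 13 comparison cells.

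Cluster 6 allowed Ccl5-positive cells to be read beside cells of the same broad profile. Its 50 cells with 2 or more Ccl5 UMIs (94074 UMIs, median 1878) were set beside its 227 cells with none (466274 UMIs, median 2046). A fold of 2 was reached upward by 97 (2.08%) and downward by 366 (7.86%) of 4655 genes. Nkg7 was found in 40 of 50 cells against 27 of 227, with a ratio of 15.9 (12.5 to 20.4). Hopx was found in 40 of 50 against 71 of 227, with a ratio of 3.50 (2.54 to 4.81). Zeb2 had 42 UMIs against 3, a ratio of 69.4 (22.2 to 350), and Bhlhe40 a ratio of 5.89 (2.87 to 12.2). Il2rb was 2.52-fold higher (1.80 to 3.51) and Itga4 2.28-fold higher (1.91 to 2.73). Several genes that separated the 51 cells from the whole library did not separate them here. S100a4 stood at 1.00 (0.850 to 1.18), Cd44 at 1.25 (0.781 to 1.94), Ikzf2 at 1.06 and Lef1 at 0.754. Cd4 was near 1 in both comparisons, here at 1.00 (0.712 to 1.39). Lower in the Ccl5-positive cells were Ramp1, with 0 UMIs against 111, and Tmem176a, with 0 against 83. The chemokine receptors Ccr6, with 0 against 45 UMIs, and Ccr10, with 0 against 41, were also absent from them at this depth. Cells of 1 cluster were grouped on the same counts, so these values describe the cluster and are not a test.

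**Figure D4:**
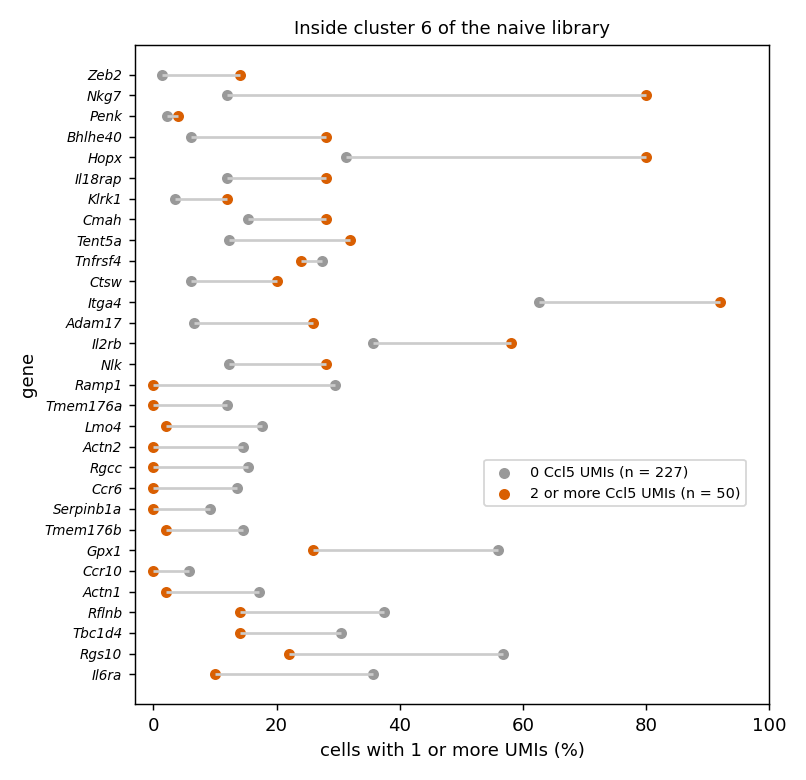
Points are the share of cells with 1 or more UMIs (horizontal, %) of 30 genes in the 50 cells of cluster 6 with 2 or more Ccl5 UMIs and in its 227 cells with none, joined by lines. Nkg7 and Hopx are found in 40 of the 50 cells each, and Ramp1, Tmem176a, Ccr6 and Ccr10 in none.

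The same rule was applied to the 4 tumor-bearing libraries, 1 per group, which differ from the naive one in tissue, treatment and depth. Median UMIs per cell ran from 1683 in the naive library to 5208.5 in the toxin library. The share of Ccl5-positive cells was 1.22% in the naive library, 2.09% (1.33 to 3.12%) in the untreated one, 2.69% (2.24 to 3.21%) with antibody, 9.84% (8.62 to 11.2%) with toxin and 11.9% (11 to 12.9%) with both. Thinned to 1000 UMIs per cell, the shares were 1.04%, 0.743%, 0.767%, 3.67% and 7.17%. At equal depth the naive library thus stood within the counting intervals of the untreated and antibody libraries and below both toxin libraries.

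**Figure D5:**
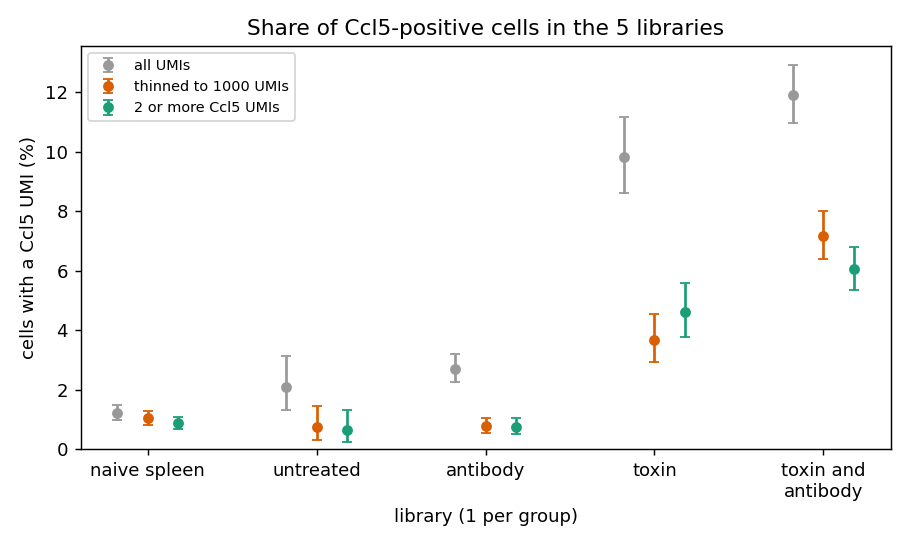
Points are the share of cells with a Ccl5 UMI (%) in each of the 5 libraries, over all UMIs, after thinning every cell to 1000 UMIs, and for 2 or more Ccl5 UMIs, with Clopper-Pearson 95% intervals for counting error. After thinning, the naive library is at 1.04%, the untreated library at 0.743% and the toxin and antibody library at 7.17%.

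The Ccl5-positive cells of the naive library differed from those of the others in content. Their median Ccl5 count was 9 UMIs, against 1 in the untreated, antibody and toxin libraries and 2 with both. The single-UMI class held 28 of 97 cells in the naive library and 15 of 23 in the untreated one. It held 85 of 123 with antibody, 87 of 215 with toxin and 222 of 518 with both. Median depth of the Ccl5-positive cells was 1777 UMIs in the naive library and 2924.5 to 5598 in the others. The levels below are summed over these unlike class mixes and depths. Cells with 6 or more NK markers numbered 17 in the naive library and 0 in each of the others. At 3 or more markers, the cut of the NK-like class, the Ccl5-positive cells numbered 17, 1, 9, 25 and 19 in the order naive, untreated, antibody, toxin and both. The marker list includes Gzmb, Prf1 and Eomes, which activated T cells also express. Nkg7 in Ccl5-positive cells was at 2968 CPM in the naive library (533 UMIs, 244 of them in NK-like cells). It was at 146, 103 and 528 CPM in the untreated, antibody and toxin libraries, and at 812 CPM with both. Gzmb went the other way, with 111 CPM in the naive cells (20 UMIs, 18 of them in NK-like cells), 0 and 1.04 CPM in the untreated and antibody libraries, 4732 CPM with toxin and 2249 CPM with both. The proliferation gene Mki67 was at 27.9 CPM in the naive cells and at 68.5, 375, 494 and 445 CPM in the others, in the same order. Foxp3 was at 66.8 CPM in the naive cells, 25.7 and 16.7 CPM without toxin, and 605 and 485 CPM with it. With 1 library per group, the library, the tissue, the treatment, the depth and the mix of classes cannot be told apart in these values.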

How the data were processed

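Single-cell RNA-seq libraries were made with the Chromium Single Cell 3′ v2 kit, per the labels' protocols. The submitters' processing notes name bcl2fastq 2.20, Cell Ranger 6.0.0, R 4.1.1, Seurat 4.0.4 and build mm10. In each deposited table, 1 for every library, the authors give raw UMI counts; CPM is scaled to the UMIs of the 11924 listed genes. Strand use in counting is not given in the sources used here.

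No cell fell to a filter of 200 genes and 10% mitochondrial UMIs. No doublet caller was run and no doublets were removed, per-cell marker counts being given instead. UMIs were summed per class, and the ratio of CPM was given an exact conditional binomial interval, levels an exact Poisson interval and shares a Clopper-Pearson interval, all at 95% and for counting error only. Genes needed 30 UMIs over both sums and a mean of 25 CPM; calls were at least 2-fold, or 1.5-fold for lists, against a floor of 3 UMIs where a sum was 0. Genes were named by a rule: the 15 highest and 15 lowest by the interval bound nearest 1 (10 each for subclasses), leaving out mitochondrial, ribosomal, sex-linked, receptor and unnamed genes, plus 2 to 4 members per list and fixed markers. Other genes in the text belong to the lists or were chosen after their values were seen. The members, classes and lists were chosen with earlier results of these data known. Thinning drew 1000 UMIs per cell and left out 2 of the 97 Ccl5-positive cells and 124 comparison cells. Clusters came from scanpy 1.11.5 (Leiden, resolution 0.6). Alternatives changed the normalization (edgeR 4.0.16 TMM factors), the minimum, the depth and the cells kept. Python 3.11.15, scipy 1.17.1 and R 4.3.3 were used; the ratio and interval code was tested on simulated data. Positions and shared 3′ ends are from GENCODE M21 on GRCm38, where 11809 of 11924 gene names matched, and upstream sequences are from RefSeq, where 9190 matched.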

Additional observations from a re-analysis of the deposited data

How the results depend on the processing

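The number of genes tested changed with the setting and is given beside each count. Over all 97 cells, the counts at least 2-fold higher (401) and lower (411), of 6797 genes, moved most with the count minimum. They were 104 and 68 of 2768 at 100 CPM, and 860 and 913 of 9475 with no minimum. They were 826 and 781 of 6507 when only the 21 cells with a transgene receptor UMI were kept. Lower genes numbered 667 of 6711 without cells carrying other lineage markers, which also removes many comparison cells because Trdc and Cd8b1 are widely detected. They numbered 779 of 6791 with 2 or more and 798 of 6790 with 3 or more Ccl5 UMIs. Without the NK-like cells, higher and lower genes were 405 and 443 of 6776, and with TMM factors 416 and 388 of 6820. List genes higher went from 107 of 239 to 63 of 157 at 100 CPM. For the 51 cells, 601 higher and 780 lower of 6733 became 145 and 173 of 2769 at 100 CPM. Over the 6 receptor-positive cells they were 1484 and 273 of 4261, where the all-gene median log2 ratio was 0.56. With no minimum 1091 of 8754 were higher. List genes higher and lower in the 51 cells, 102 and 55 of 220, became 66 and 36 of 152 at 100 CPM. The Ccl5-positive share was 0.905% at 500 UMIs per cell and 0.867% for 2 or more UMIs, against 1.22%. The receptor share of 21.6% was 10.3% at 500 UMIs. The share in cluster 6, 55.7%, was 73.2% at resolution 0.3, where the NK-like cells join it, and 72.5% for 2 or more Ccl5 UMIs. Lyz2, 1 UMI over the 97 cells, turned from lower to higher (log2 ratio 1.62, 1.03 and 1.52) where comparison cells with myeloid or many UMIs were left out, by removal of those cells. Genes named for the 97 and for the 51 cells otherwise kept their direction. Over all settings, 83 and 69 of their values lay outside the main interval, and 517 and 463 within it. Genes named for the NK-like cells, the single-UMI cells and the Gzma division were not rerun. Depth limits most genes to detection in few cells. No paired analysis was possible because each group has 1 library.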

Other observations

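The 491 naive-library cells without Ccl5 that held Klrd1, Gzma or Cxcr6 entered no comparison above. Klrd1 was found in 392 of them, with 1 UMI in 345, and Gzma in 50, with 1 UMI in 44 and at most 14. Cxcr6 was found in 55, whose median depth was 2245 UMIs per cell. Summed over the 491 cells, Nkg7 was at 6.44 times its level in the comparison cells (4.78 to 8.59) and S100a4 at 5.79 times (5.03 to 6.64). Id2 stood at 3.45 times and Itgb1 at 2.2 times, while Lef1 at 0.961 times was near the comparison level.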
